A study of Mus musculus with 5 samples.

Results

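The region described here is the stretch of mouse chromosome 16 that holds the 4C bait, from 48230001 to 49600000 (mm9), in 3 libraries of inbred mouse embryonic stem cells. It was taken as all 5-kb windows in these limits, outside the 100-kb gap around the bait, which runs from 48555001 to the window that starts at 48655001. This gave 254 of the 19951 windows of the table, 65 before the gap (lower coordinates) and 189 after it. The limits were fixed by position, and the first one is where the windows listed as deleted end in both deletion libraries. The inbred groups were the line 46C, labelled wild type, a line with a deletion of a domain boundary labelled 45 kb and a line with one labelled 350 kb, with 1 library each. They are called WT, del45k and del350k below, as in the table. 46C is an embryonic stem cell line with a fluorescent neural reporter. The labels name CRISPR as the means of deletion, and they give 46C as grown with serum and LIF. They do not name the parent of the deletion lines, nor whether a line is 1 clone or carries the deletion on both chromosomes. The 2 hybrid clones of the series have another bait and build and were not used here.

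In 4C-seq, chromatin is cut and re-ligated while fixed, and the DNA joined to 1 chosen fragment, the bait, is amplified and sequenced, so the read number at a place shows how often it lay near the bait. Contacts fall with distance from the bait and are more frequent within a domain than across its boundaries, which are stretches of chromatin that limit contacts between neighbours. The Dppa2/4 domain is named for Dppa2 and Dppa4, genes of chromatin-associated proteins of pluripotent cells, and is a model region for the control of replication timing that replicates early in embryonic stem cells. In the RefSeq annotation of GRCm38.p6 the protein-coding genes follow in the order Dppa4, Dppa2, Morc1, Trat1, Retnlb, Retnla, Retnlg, Dzip3, Cip2a and Myh15. No annotation of mm9 was used, so the windows below are given by position and none is assigned to a gene.

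All 3 inbred libraries carry the same bait primers in their labels. They are shown because they set where the contacts are read from, with capitals marking the bases at the 3′ end that begin a HindIII site, AAGCTT.
Forward primer: agcgtgaggtacatgaAAGC
Reverse primer: cctgaagagctggtaccaaa
The forward primer ends in the first 4 bases of the HindIII site, the cutter named in the protocol for the first digest. The reverse primer ends neither in those 4 bases nor in the start of a DpnII site, and neither primer matched any of 32851 RefSeq promoter windows (GRCm38.p6) on either strand. The position of the bait was therefore not read from the primers, and distances below run from the centre of the gap at 48605000.

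The deposited signal is a running mean over 30 windows (150 kb). Undoing it gave whole reads in 100% of windows within a tolerance of 0.01, and these are called own reads here. They came to 1714005 in WT, 1772088 in del45k and 1465714 in del350k. The windows listed at 0 began at 48185001 in del45k and at 47900001 in del350k, and the last of them began at 48225001 in both, which gives lengths of 45 and 330 kb. The running mean steps over these windows, so a 0 there is how the table was made and is no check of the deletion. It steps over the bait gap as well. Within 75 kb of the gap, or of a deletion in its library, the deposited signal thus mixes windows from both sides, while own reads do not. With 1 library per group no test between groups is possible. Intervals are 95% intervals and cover counting error alone, since PCR copies of a molecule could not be told from separate molecules. Both deletions are set against the same WT library.

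The bait domain held 38.2% of the chromosome's signal in WT, 37.3% in del45k and 36.8% in del350k. In own reads these were 660372 reads or 38.5% (95% Wilson interval 38.5 to 38.6%), 659379 reads or 37.2% (37.1 to 37.3%) and 540104 reads or 36.8% (36.8 to 36.9%). Both deletion libraries were slightly below WT, with a log2 ratio of -0.036 for del45k and -0.054 for del350k. The size of this difference rests on what the domain is set against. The deleted windows held 1.04% and 4.75% of the WT signal, and when both deleted stretches were dropped from every total the ratios were -0.048 and -0.12. Set against the signal elsewhere on the chromosome they were -0.079 and -0.20. Mean signal in the domain was 2982 in WT, 2909 in del45k and 2877 in del350k, against a median window of 41.7, 43.7 and 43.6, which is 71.4, 66.5 and 65.9 times higher.

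**Figure D1:**
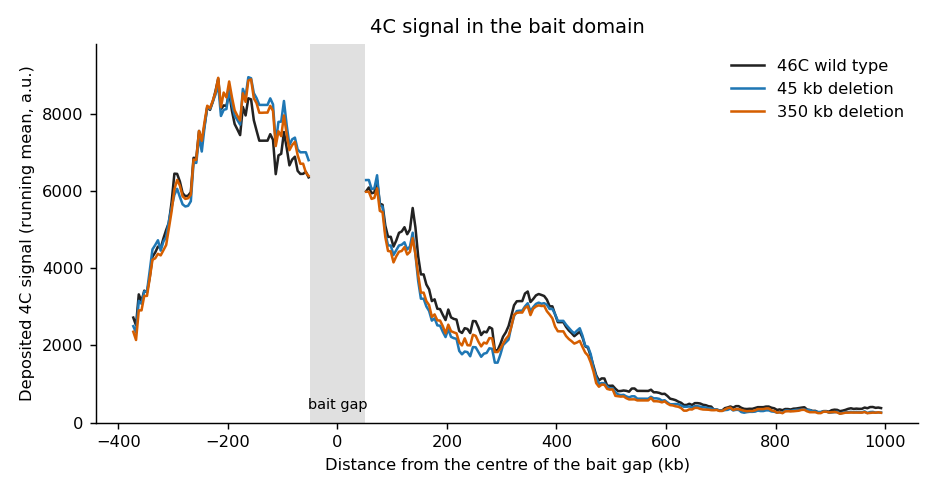
Deposited 4C signal (running mean over 30 windows, vertical axis from 0) in each 5-kb window of the bait domain against distance from the centre of the bait gap in kb, with 1 line per library and the gap in grey. All 3 lines reach their maximum before the gap, between 8903 and 8941, fall to a trough of 1556 to 1876 at 287.5 kb after the gap centre, rise again to between 3038 and 3397 and drop near 470 kb.

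Signal was highest before the gap. The WT maximum was 8903 at 48385001 to 48390000, where del45k had 8745 and del350k 8925, its own maximum. The del45k maximum was 8941 at 48440001 to 48445000, where WT had 8395 and del350k 8853. The 3 maxima were thus close in height, while that of del45k lay 55 kb nearer to the gap. Neither maximum marks a fragment, because both windows held 0 own reads in every library and took their value from their surroundings.

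In own reads the leading window was the same in all 3 libraries, 48410001 to 48415000, at 192.5 kb before the gap centre. It held 23046 reads in WT, 26731 in del45k and 20128 in del350k, or 1.34%, 1.51% and 1.37% of all reads. The next windows by mean share were 48510001 to 48515000, with 18974, 21495 and 19949 reads in the same order, and 48310001 to 48315000, with 20758, 21881 and 16975. Of the 10 windows with the highest mean share, only 48670001 to 48675000 lay after the gap. It was the highest window on that side in each library, with 19396, 18338 and 13688 reads. The 10 strongest windows of a library took 28.5% of the domain's reads in WT, 30.6% in del45k and 29.0% in del350k, and 8 windows were among the 10 in all 3. Reads fell in 188, 186 and 182 of the 254 windows, in 177 of them in all 3 libraries, and 61 windows had none in any. Over the 254 windows, Spearman's rho of own reads was 0.98 between WT and del45k, 0.95 between WT and del350k and 0.96 between the deletions. This is a description across windows that share fragments, primers and distance to the bait.

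From the boundary side the signal rose steeply. At the first window, 48230001 to 48235000, the running mean was 2722 in WT, 2499 in del45k and 2355 in del350k. It passed 50% of the maximum before the gap at 48275001 in WT, 48265001 in del45k and 48285001 in del350k. All these windows lie within 75 kb of the deleted ones. In the deletion libraries their running mean also takes in windows from the far side of the deletion, so each library averages a different stretch. WT, which keeps all windows there, had its steepest rise at 48240000, searched from 400 kb before the longer deletion up to the gap, where the mean of the next 100 kb was 2.34 times that of the 100 kb before, 4911 against 2098. In the running mean, the steepest WT rise thus lay beside the deleted stretches. Own reads of WT were higher further inside the domain, but did not rise evenly. The windows at 48230001, 48235001 and 48240001 held 6898, 5079 and 7834 reads. All 10 windows from 48250001 to 48300000 then held only 19804, and those from 48300001 to 48350000 held 67585. The steepest rise was not searched in own reads, so its place is given for the running mean alone.

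Own reads of the first window did not follow its running mean. They were 6898 in WT, 526 in del45k and 0 in del350k, which allows up to 3 counts. The next window, at 48235001, held 5079, 5606 and 3261 reads, and the one at 48240001 held 7834, 5170 and 6105. The last window before the longer deletion, at 47895001, held 856 reads in WT, 1590 in del45k and 0 in del350k. On the side of the bait, reads were thus missing or nearly missing 1 window past those listed at 0 in the deletion libraries. Whether the deletions extend into it was not tested. The place of own reads, to within 1 window, also rests on how the running mean was taken to be centred, which was not tested. Without this window the log2 ratio of the domain's own reads was -0.036 for del45k and -0.049 for del350k, against -0.050 and -0.064 with it.

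The 2 sides of the gap went apart in the deletion libraries. Before the gap, WT held 21.4% of its signal, del45k 22.2% and del350k 21.9%, log2 ratios of 0.047 and 0.032. In own reads both were 0.030 (counting interval 0.023 to 0.036 for each), and without the first window 0.055 and 0.057. This side did not keep its direction under every total. For del350k its ratio was -0.038 with the deleted windows left out of the totals and -0.12 against the signal elsewhere, while for del45k it was 0.035 and 0.0037.

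After the gap, WT held 16.7% of its signal, del45k 15.1% and del350k 14.9%, log2 ratios of -0.15 and -0.17. In own reads the ratios were -0.16 (counting interval -0.165 to -0.150) and -0.19 (-0.20 to -0.184). With the other totals they were -0.16 and -0.19 for del45k and -0.24 and -0.32 for del350k, so this side was lower than in WT under each of them. Within the domain, which needs no chromosome total, 55.7% of WT reads lay before the gap (95% Wilson interval 55.6 to 55.8%), 58.9% in del45k (58.7 to 59.0%) and 59.4% in del350k (59.3 to 59.6%). Mean signal before the gap was 3.73 times that after it in WT and 4.27 and 4.29 times in the deletion libraries. The side before the gap spans 325 kb and the side after it 945 kb, whose last 500 kb had a mean of only 486 in WT. The ratio is thus no comparison of the sides at equal distance from the bait. How much such values vary between cultures of 1 line cannot be known from these libraries.

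Past the gap the signal fell in 2 steps with a second rise between them. Over the first 10 windows after the gap its mean was 5628 in WT, 5638 in del45k and 5425 in del350k. It first went under 50% of that level at 48795001 in WT, 48775001 in del45k and 48785001 in del350k, 192.5, 172.5 and 182.5 kb from the gap centre. The running mean spreads this step. The level also holds reads from before the gap, since the first 10 windows lie within 75 kb of it. All fall-off positions set against this level rest on that mixture. In own reads the bin from 48655001 to 48700000 held 4379 reads per window in WT, scaled to 1000000 reads per library (RPM), 4210 in del45k and 3899 in del350k, and the next bin, from 48700001, already had 1720, 1654 and 1502.

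The lowest window of the first step lay at 48890001 to 48895000 in all 3 libraries, with a signal of 1876 in WT, 1556 in del45k and 1832 in del350k. The second rise then reached 3397 at 48950001 in WT, and 3109 and 3038 at 48970001 in del45k and del350k. That is 1.81, 2.00 and 1.66 times the trough. Own reads showed it too: from 48850001 to 48900000 there were 548, 467 and 500 RPM per window, and from 48950001 to 49000000 there were 2384, 2442 and 2194. This feature was chosen after its values were seen. In the running mean it lay 347.5 kb from the gap centre in WT and 367.5 kb in both deletion libraries. Its strongest window by own reads was at 48920001 in WT, with 8113 reads or 0.47% of the library, at 48990001 in del45k, with 9982 or 0.56%, and at 48995001 in del350k, with 6968 or 0.48%. These places were near ties in WT, which held 7417 reads at 48990001 and 7270 at 48995001. The WT running mean at 48970001 was 3331, close to its maximum, so no shift of the second rise is read from them.

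**Figure D2:**
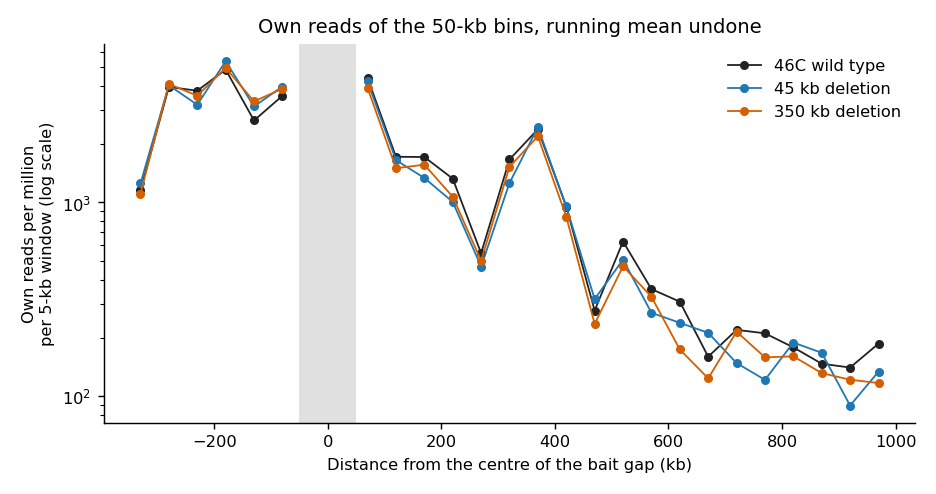
Own reads per 5-kb window, scaled to 1000000 reads per library (RPM), in the 25 bins of 50 kb of the domain (log axis) against distance of the bin from the gap centre in kb, with 1 point per bin and library and the gap in grey. The dip at 270 kb and the second rise at 370 kb are in all 3 libraries, and from 670 kb on all points lie between 89.7 and 220.4.

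The second step was the steepest. Over the 1945 kb after the gap, the lowest ratio of the 100 kb after a point to the 100 kb before it was at 49070000 in WT, where the mean signal went from 2584 to 952, 2.72-fold lower. It was at 49075000 in both deletion libraries, from 2487 to 787 in del45k (3.16-fold) and from 2260 to 731 in del350k (3.09-fold). The step thus lay 465 to 470 kb after the gap centre in the 3 libraries, at most 1 window apart, and was larger in the deletion libraries. With the running mean undone it was further apart, at 415 kb in WT, 470 kb in del45k and 435 kb in del350k, with 4.27-, 4.51- and 4.73-fold lower own reads. Signal went under 25% of the level beside the gap at 49075001, 49075001 and 49070001, and under 10% at 49225001 in WT, 49205001 in del45k and 49195001 in del350k.

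Beyond that step the domain as taken here ran on for 500 kb with little signal. From 49100001 to 49600000 the mean signal was 486 in WT, 400 in del45k and 381 in del350k, which is 11.6, 9.16 and 8.72 times the median window. Own reads did not fall at the end of the domain. The last 50 kb held 3206 in WT, 2377 in del45k and 1717 in del350k, and the first 50 kb past it 4927, 3484 and 2199. The running mean was 380, 265 and 259 in the last window and 352, 249 and 232 in the first past it. Neighbouring windows share nearly all their inputs, so these values alone cannot show whether a step is there. Over the next 500 kb the mean was 314, 275 and 251. The downstream limit at 49600000 is therefore not where the signal falls off.

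**Figure D3:**
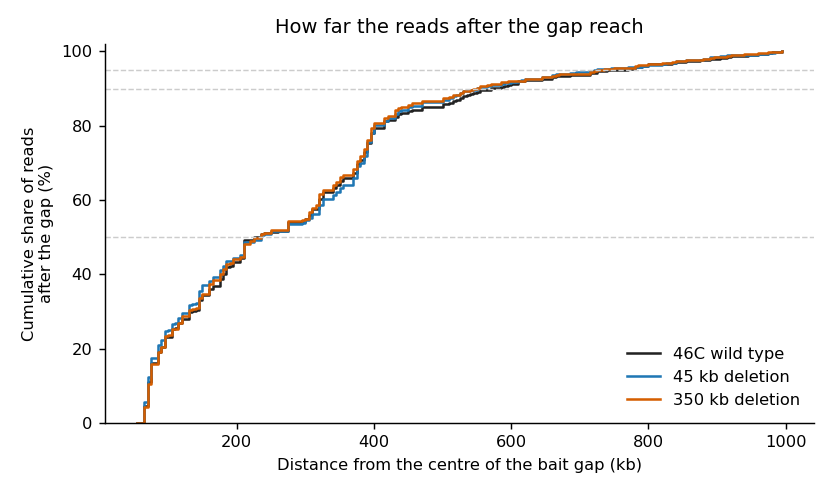
Cumulative share of the own reads after the gap (percent) against distance from the gap centre in kb, with 1 line per library and dashed lines at 50, 90 and 95%. The WT line crosses 90% at 570 kb and the lines of both deletions at 550 kb.

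The reach of the reads after the gap was also taken as the distance that holds a given share of them. In WT 50% of the own reads after the gap lay within 225 kb of the gap centre, 90% within 570 kb and 95% within 750 kb. In both deletion libraries these distances were 235, 550 and 725 kb. The last 5% of reads of the downstream side thus began 25 kb nearer to the bait in the deletion libraries, and the first 50% ended 10 kb further from it. The second of these turned round in the running mean, where 50% lay within 260 kb in WT, 255 kb in del45k and 250 kb in del350k, while 95% lay within 765, 740 and 740 kb.

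The difference from WT after the gap was found in each of its sections. From the gap to 48850000 the own reads were 149167 in WT, 137981 in del45k and 112087 in del350k, or 8.70%, 7.79% and 7.65% of each library, log2 ratios of -0.16 (counting interval -0.17 to -0.15) for del45k and -0.19 (-0.20 to -0.18) for del350k. From 48850001 to 49100000, the section of the second rise, the shares were 5.83%, 5.44% and 5.30%, with ratios of -0.099 (-0.11 to -0.086) and -0.14 (-0.15 to -0.12). From 49100001 to 49600000 they were 2.54%, 2.08% and 2.00%, with ratios of -0.29 (-0.31 to -0.27) and -0.35 (-0.37 to -0.32). In both libraries the ratio was nearest to 0 over the second rise and lowest in the last section. The 500 kb past the domain were lower as well, at -0.25 (-0.27 to -0.22) and -0.36 (-0.39 to -0.34), so the lower signal did not end with the domain.

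In bins of 50 kb, 25 of which had at least 5 windows of the domain, few changes were large. No bin was above a log2 ratio of 0.5 in del45k, against 25.7% of 921 bins outside the domain, and none in del350k, against 32.7%. Below -0.5 there was no bin in del45k, against 6.62%, and 1 in del350k, against 9.88%. In own reads no bin was above 0.5 in del45k, against 35.1% outside, or in del350k, against 38.9%, while 3 and 2 bins were below -0.5, against 19.9% and 23.6%. The bins outside the domain, chosen to have at least the median signal, held a median of 535 own reads, and those of the domain 15685, so counting error is larger in the outside bins.

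More bins of the domain were below WT than above it. Ratios below 0 were found in 19 of 25 bins of del45k, against 35.4% outside the domain, and in 21 of 25 of del350k, against 36.4%. Before the gap these were 2 of 6 bins in each library, and after it 17 of 19 and 19 of 19. The median log2 over the 25 bins was -0.15 and -0.17, while over the outside bins it was 0.18 and 0.19. In own reads del45k had 14 of 25 bins below 0, 13 of them after the gap, against 41.9% outside, and del350k again had 21, with 19 after the gap, against 42.5%. With the deleted stretches dropped from the totals the counts were 20 and 24 of 25, and against the signal elsewhere 22 and 25.

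**Figure D4:**
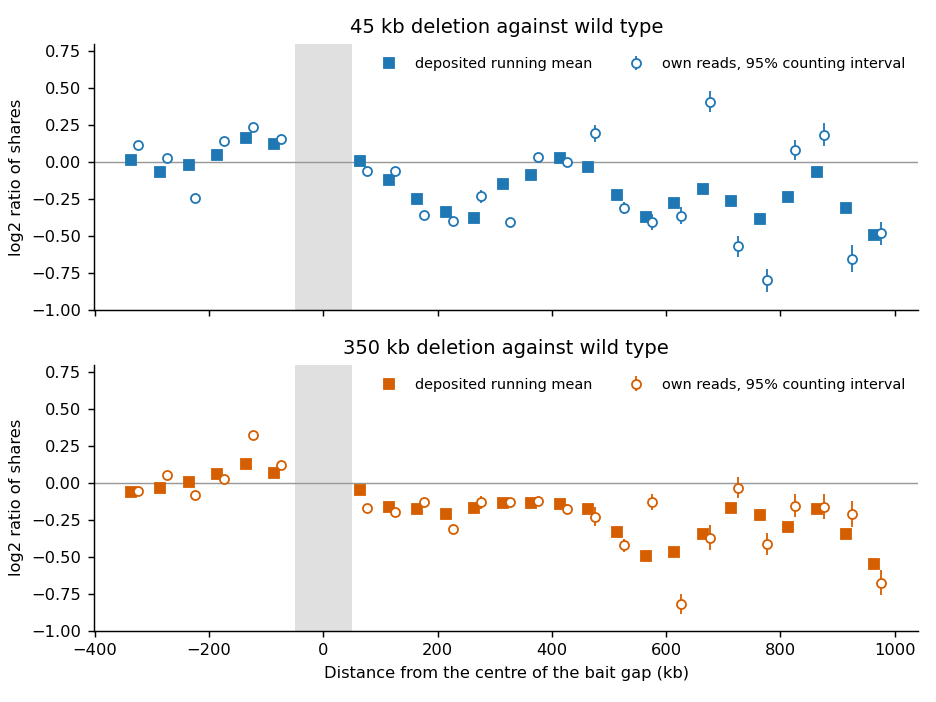
Log2 ratio of the share of each 50-kb bin in a deletion library to that in WT, against distance from the gap centre in kb (filled squares: deposited running mean; open circles: own reads with 95% counting interval; gap in grey). In both panels the highest squares are before the gap and the lowest is the last bin, at 970 kb.

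In the running mean, the bins that stood highest against WT were the 3 from 48400001 to 48550000 in both deletion libraries. At 48450001 to 48500000, mean signal was 7272 in WT, 8148 in del45k and 7972 in del350k, log2 ratios of 0.16 and 0.13. Its own reads gave 0.24 (counting interval 0.22 to 0.26) and 0.33 (0.31 to 0.34). The bin from 48500001 had signal ratios of 0.12 and 0.067, and the bin from 48400001 of 0.051 and 0.061. The choice shares the WT library, so the same bins in both are no independent support. Between them and the boundary, the bin at 48350001 to 48400000 went the other way in own reads of both libraries. Its own reads gave -0.24 and -0.085, while its running mean was at -0.017 and 0.0085. The bin from 48250001 did so in own reads of del350k only, at -0.055 (counting interval -0.085 to -0.025), against 0.12 in del45k.

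Own reads ranked the high bins otherwise, and the bins named for this were chosen after their values were seen. The highest bin of del45k then lay after the gap, at 49250001 to 49300000, where own reads were 2746 in WT, 3768 in del45k and 1816 in del350k. Its log2 ratio was 0.41 (counting interval 0.34 to 0.48) in del45k and -0.37 in del350k, while its running mean was below WT in both, at -0.18 and -0.35. The bins of del45k from 49050001 and from 49450001, at 0.20 and 0.19, were also above those from 48500001 (0.16) and 48400001 (0.14). In del350k the bin from 48450001 was the highest in own reads too, and the bin from 48300001, at 0.051, was above that from 48400001, at 0.029. No bin after the gap was above WT in own reads of del350k.

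In the running mean, the lowest bin was the last of the domain, 49550001 to 49600000, in both libraries. Its mean signal was 383 in WT, 273 in del45k and 263 in del350k, log2 ratios of -0.49 and -0.55. Its own reads, 3206, 2377 and 1717, gave -0.48 (-0.56 to -0.40) and -0.68 (-0.76 to -0.59). The next lowest bins of del45k by running mean were at 49350001 to 49400000, with a signal ratio of -0.38 and own reads of 3624 against 2156 (-0.80), and at 48850001 to 48900000, in the trough, with -0.38 and own reads of 9385 against 8275 (-0.23). Those of del350k were at 49150001 to 49200000, with -0.50 and own reads at -0.13, and at 49200001 to 49250000, with -0.47 and own reads of 5277 against 2558 (-0.82). In own reads the lowest bin was thus not the last one. It was that from 49350001 in del45k, where those from 49500001 (-0.65) and 49300001 (-0.57) were also below the last bin, and that from 49200001 in del350k. The running mean and the own reads of a bin pointed the same way in these bins, but not to the same size. Over all 25 bins they had the same direction in 18 for del45k and in 23 for del350k.

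Differences between the deletion libraries were of similar size to those from WT in own reads. The median absolute log2 ratio over the 25 bins was 0.24 for del45k against WT, 0.16 for del350k against WT and 0.18 for del350k against del45k. In the running mean these were 0.16, 0.17 and 0.065. The section from 48750001 to 48850000 was lower in del45k than in del350k in the running mean (2873 and 2025 against 3009 and 2215 in its 2 bins), whereas the bins from 49000001 to 49100000 were higher (2523 and 1457 against 2236 and 1321). WT had 3404 and 2557 in the first of these sections and 2470 and 1490 in the second.

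In the stretch of the same length before the longer deletion, from 46530001 to 47900000, the share was 7.06% in WT, 6.09% in del45k and 9.22% in del350k, log2 ratios of -0.21 and 0.39. In the stretch of the same length after the domain, from 49600001 to 50970000, it was 3.67%, 3.33% and 3.03%, ratios of -0.14 and -0.28. The side of the domain after the gap thus had a ratio near that of the stretch that follows it in del45k, and nearer to 0 than it in del350k. These are values of single libraries, and the differences between stretches were not tested.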

How the data were processed

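4C-seq was read from 1 deposited table of 3 inbred libraries. The first cutter was HindIII and the second DpnII, per the labels' protocols. Reads were aligned with Bowtie2, per the submitters' processing notes; its version is not given in the sources used here. The deposited values are coverage signal per 5-kb window, as a running mean over 30 windows with 20 windows around the bait left out and nearly the same total in each library. The table names no chromosome and was read as chromosome 16 of mm9. The 4 columns of the hybrid table were not used. Shares are percent of each library's total. Own reads were recovered by undoing the running mean, with the windows listed at 0 in the deletion libraries left out first. This step was run on reads simulated with the same running mean and the same windows left out. Such a run checks the code alone, not how the deposited values were made. Bins are 50 kb with at least 5 windows. Bins outside the domain were kept at a mean signal of at least 43.3, the median bin. Ratios past 0.5 (log2) were counted; no test was possible with 1 library per group. The fall-off level was 50% of the mean of the 10 windows after the gap. Named regions were the highest window on each side, the fall-off and, per deletion, the 3 highest and 3 lowest bins. Other totals, bin sizes, thresholds and own reads were tried as alternatives. The region and its limits were chosen with earlier results of these data known. Software was matplotlib 3.10.9, scipy 1.17.1, pandas 2.3.3 and numpy 2.4.6 on Python 3.11.15.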

Additional observations from a re-analysis of the deposited data

Results flagged for a closer look

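In 4 bins of 50 kb the running mean of del45k and that of del350k lay on opposite sides of WT. With single libraries this was not tested. The difference in log2 ratio, del350k minus del45k, came to -0.074 in the bin from 48250001, 0.026 in the bin from 48350001, -0.058 in the bin from 48655001 and -0.18 in the bin from 49000001. In the last of these, own reads were 16328 in WT, 16896 in del45k and 12374 in del350k, log2 ratios of 0.0013 and -0.17.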

How the results depend on the processing

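No paired analysis was possible because each group holds 1 library. With the running mean undone the domain share of WT was 38.5%. With both deleted stretches dropped from the total it was 40.1% in WT and 38.8% in del45k. As a percent of the signal elsewhere it was 66.9, 63.3 and 58.2 in WT, del45k and del350k. Without the windows within 75 kb of the deletions or the gap it was 25.9%, 24.6% and 24.6%, since fewer windows were summed. The log2 ratio of the domain to WT stayed below 0 in each of these settings: for del45k and del350k it was -0.050 and -0.064 with the running mean undone, -0.048 and -0.12 without the deleted windows, -0.079 and -0.20 against the signal elsewhere, and -0.077 and -0.074 without the windows near the deletions or the gap. The log2 ratio of the sides before and after the gap, 1.90, 2.09 and 2.10, became 1.87, 2.06 and 2.09 with the running mean undone, 1.86, 2.08 and 2.11 also without the first window, a setting chosen after seeing the data, and 2.38, 2.59 and 2.61 without the windows near the deletions or the gap.

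The highest window was at 48410001 in all 3 libraries with the running mean undone. The fall-off was then at 48655001 in each, a window with 0 reads, and at 48700001 in each in 50-kb bins of own reads, a setting added after seeing the data. The 25% level gave 49075001, 49075001 and 49070001, and the last window at or above 50% was 48995001, 48995001 and 48990001, on the second rise. The steepest drop was at 49020000 in WT and 49040000 in del350k with the running mean undone, and at 49115000, 49120000 and 49115000 with 200 kb on each side. The bins below -0.5 were 0 for del45k and 1 for del350k. They were 3 and 2 with the running mean undone, 1 and 3 without the deleted windows, 1 and 3 against the signal elsewhere, 8 and 7 at a threshold of 0.25 and 0 and 0 in bins of 100 kb. No bin was above the threshold in any setting run. The cause of these shifts was not tested, apart from those that follow from fewer windows or another threshold.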
